A study of Homo sapiens with 2 samples.

Results

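The matrix metalloproteinases (MMPs), the ADAMs and the ADAMTS proteases are zinc-dependent enzymes of the metzincin superfamily that cut the extracellular matrix and the outer parts of membrane proteins. The genes described here are those whose symbol is MMP, ADAM or ADAMTS followed directly by a number, 62 of the 20136 protein-coding genes of the annotation: 23 MMP genes, 20 ADAM genes and 19 ADAMTS genes. A further symbol, MMP24OS, also matched this pattern, but it names the opposite-strand gene of MMP24 and not a metalloprotease, and it was left out. For each gene, the peaks of TRPS1 binding were collected whose midpoint lay in the gene body or within 10 kb on either side, which is called the window of the gene. TRPS1 binding was profiled by Flag CUT&Tag, in which an antibody steers a transposase to the tagged protein and the DNA beside it is cut, tagged and sequenced. The cells were HCT116, a human colorectal carcinoma line that the labels give as epithelial. They carried, by lentiviral transduction and puromycin selection, a vector that overexpresses Flag-tagged TRPS1, either the wild type (TRPS1-WT cells) or the R544Q mutant (TRPS1-MT cells). Both groups therefore carried extra TRPS1, the peaks are those of the tagged protein, and no library of empty-vector cells was analysed here. There was 1 library per group, so that values below compare these libraries and not the conditions. No test between them was possible. All intervals are 95% intervals. Those of tags, rates and single ratios cover counting error only. Those of shares treat the genes, promoters or peaks as independent draws, which they are not, and serve as description and not as tests. That of the median promoter ratio covers the spread over members. Nothing in a list of peaks checks the genotype in its label.

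TRPS1 is a zinc-finger transcription factor of the GATA type that acts mainly as a repressor. The MMPs are known in colorectal tumours for the breakdown of matrix at the invasive edge. Among them are the collagenases, which cut fibrillar collagen, the gelatinases, which cut its denatured form, and the matrilysin MMP7, which tumour epithelium itself makes. ADAMs such as ADAM10 and ADAM17 are sheddases that release growth factors, cytokines and receptor fragments from the cell surface, while ADAMTS proteases are secreted enzymes that trim proteoglycans, procollagens and other matrix proteins. The promoters of several secreted MMPs are textbook targets of AP-1, the dimer of FOS and JUN proteins.

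The promoters that hold the AP-1 consensus, TGACTCA or its reverse complement TGAGTCA, are described first, because this letter run set the MMP genes apart from the other members and could be read against the peaks. The window searched ran from 250 bp before to 50 bp after the canonical transcription start site (TSS). Of the 23 MMP promoters, 7 held the consensus (30.4%, 15.6 to 50.9), against none of the 20 ADAM and none of the 19 ADAMTS promoters and against 3.57% of all 19855 protein-coding promoters searched. Of these 7 promoters, 5 belong to the 9 MMP genes that lie side by side on chromosome 11q22. The interval treats such neighbours as independent. All 7 matches started between 79 and 51 bp before the TSS. The promoter of MMP7 is printed as the example from tumour epithelium. The stretch runs from 120 to 31 bp before the TSS in the direction of the gene, is taken from GRCh37 (hg19) and shows the AP-1 match in capitals. It overlapped no annotated exon.
MMP7 promoter, chr11:102401509-102401598, minus strand: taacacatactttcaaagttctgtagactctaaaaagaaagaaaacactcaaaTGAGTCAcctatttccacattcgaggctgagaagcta

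In the collagenase gene MMP1 the match, 71 bp before the TSS, lay inside a peak of both lists. In MMP19, whose enzyme cuts basement membrane proteins, the match at 75 bp before the TSS lay inside the TRPS1-MT peak and 10 bp outside the TRPS1-WT peak. The other 5 matches lay in no peak. For MMP13, a collagenase, the nearest peaks were 432 bp away in the TRPS1-WT list and 651 bp away in the TRPS1-MT list, and for MMP7 they were 3761 and 436 bp away. For the stromelysin MMP3 these distances were 4084 and 5753 bp. For the elastase MMP12 they were 6208 and 5432 bp, and for the gelatinase MMP9 they were 3396 and 2928 bp. Thus 1 of the 7 matches was covered by TRPS1-WT peaks and 2 were covered by TRPS1-MT peaks, beside 26.6% and 28.2% of the 708 protein-coding promoters that held an AP-1 match. A match is a description of letters and does not show that a factor sat there.

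Some other consensus sequences were also spread unevenly over the families. TATAAA, on either strand, was found in 10 of 23 MMP promoters (43.5%, 25.6 to 63.2), in 3 of 20 ADAM and in 4 of 19 ADAMTS promoters, against 9.63% of all promoters. Of these 10 MMP promoters, 7 belong to the genes on chromosome 11q22. The SP and KLF consensus GGGCGG was found in 16 of 19 ADAMTS promoters (84.2%, 62.4 to 94.5), in 11 of 20 ADAM promoters and in 10 of 23 MMP promoters, against 61.5% of all promoters. The GATA letters, AGATAA with A or T as the first and A or G as the last letter, were in 11 of 62 member promoters (17.7%) and in 18.4% of all. For the remaining consensus sequences the member promoters and all promoters stood at 6.45% and 9.78% for the ETS letters CGGAAGT, at 9.68% and 11.3% for the TEAD letters GGAATG, and at 19.4% and 26.3% for the ZEB and SNAI E-box letters CAGGTG and CAGGTA. The intervals of all members held the value over all promoters for each of these. By family, however, the E-box letters were in 9 of 20 ADAM promoters (interval 25.8 to 65.8%), in 2 of 23 MMP promoters (8.70%, 2.42 to 26.8) and in 1 of 19 ADAMTS promoters (5.26%, 0.935 to 24.6), and the last interval lay below the share over all promoters.

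**Figure D1:**
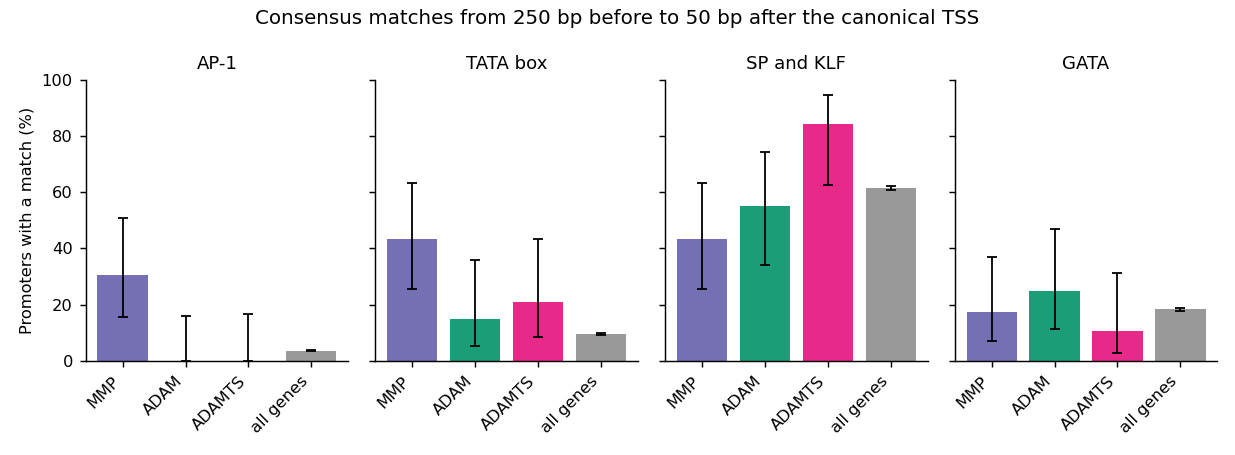
Share of promoters (y axis, %, from 250 bp before to 50 bp after the canonical TSS) that held the AP-1, TATA box, SP and KLF or GATA consensus on either strand, for the 23 MMP, 20 ADAM and 19 ADAMTS genes and for all 19855 protein-coding promoters; bars are shares and error bars 95% Wilson intervals. AP-1 stood at 30.4% in the MMP promoters, at 0 in both other families and at 3.57% in all genes. Of the 7 MMP promoters with AP-1, 5 belong to the gene cluster of chromosome 11q22.

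The lists held 173304 peaks of TRPS1-WT cells and 325573 peaks of TRPS1-MT cells on chromosomes 1 to 22, X and Y. Sequencing depth is not given in the lists. The median number of tags (sequenced fragments piled up at the summit of a peak, recovered from the fold enrichment and −log10 p of the list) was 14.0 for TRPS1-WT and 17.0 for TRPS1-MT. Of all peaks, 69.6% in the TRPS1-WT list and 82.2% in the TRPS1-MT list had exactly the minimum width of the list, 168 and 280 bp. Over all peaks, 30.4% of the TRPS1-WT list and 15.8% of the TRPS1-MT list overlapped a peak of the other list by at least 1 bp.

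A smaller share of the metalloprotease genes than of protein-coding genes at large had promoter peaks, and a smaller share had promoter peaks of both lists at the same place. A promoter was taken as 2 kb before to 1 kb after any annotated TSS of the gene. In the TRPS1-WT list 35 of 62 members had a promoter peak (56.5%, 44.1 to 68.1), beside 67.5% of all protein-coding genes. In TRPS1-MT cells, 39 members had one (62.9%, 50.5 to 73.8), beside 76.5% of all. The first interval just held the share over all genes, and the second lay below it. Promoter peaks in both lists were present for 27 members (43.5%), beside 62.6% of all genes. They were in TRPS1-WT cells only for 8 members (12.9%, beside 4.89%), in TRPS1-MT cells only for 12 members (19.4%, beside 13.8%) and in neither list for 15 members (24.2%, beside 18.7%). The promoter peaks of the lists overlapped for 16 members (25.8%), beside 50.1% of all protein-coding genes. With the canonical TSS of each gene alone, 22 members had one in TRPS1-WT cells (55.5% of all genes did), 26 had one in TRPS1-MT cells (63.7% of all) and 13 had one in both lists (48.4% of all). The TRPS1-MT list was also trimmed to its strongest peaks so that both lists were equally long. Then 24 members had promoter peaks in both lists (58.6% of all genes did). They were in TRPS1-WT cells only for 11 members (8.86% of all genes) and in TRPS1-MT cells only for 8 (8.69% of all), so that the order of the last groups turned.

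The families differed in these counts, with groups too small for narrow intervals. Among the 20 ADAM genes, 11 had promoter peaks in both lists and 7 had overlapping ones. Among the 19 ADAMTS genes these counts were 9 and 5, and among the 23 MMP genes 7 and 4. The MMP genes, 23 of the 62 members, made up 6 of the 12 members with a promoter peak in TRPS1-MT cells only. This was 26.1% of the MMP genes, beside 19.4% of all members and 13.8% of all genes. The MMP genes also made up 7 of the 15 members with none, 30.4% of the family beside 24.2% of all members and 18.7% of all genes.

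**Figure D2:**
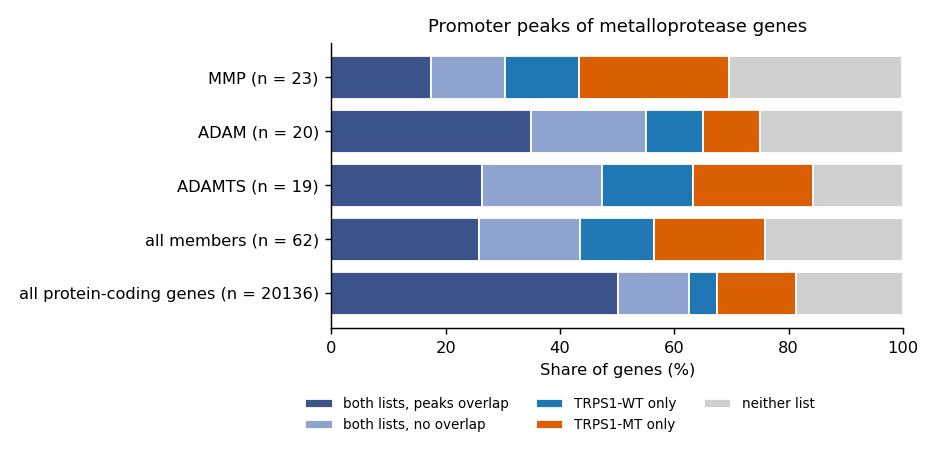
Share of genes (x axis, %) by whether a promoter peak was found in both lists with overlap, in both without overlap, in TRPS1-WT cells only, in TRPS1-MT cells only or in neither, for each family, all 62 members and all 20136 protein-coding genes. Overlapping promoter peaks made up 25.8% of the members and 50.1% of all genes.

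The sheddase genes ADAM9 and ADAM17 held the promoter peaks with the most tags of the set in both lists. By −log10 p the order differed. In TRPS1-WT cells ADAM9 stood first at 68.8 and ADAM17 was at 27.3. In TRPS1-MT cells ADAMTS9 stood first at 94.2, with ADAM17 at 73.4 and ADAM9 at 37.4. At the promoter of ADAM9, which sheds membrane-bound growth factors, 205 tags (178 to 235) were counted in TRPS1-WT cells and 210 tags (183 to 240.4) in TRPS1-MT cells, in a stretch that is also the promoter of TM2D2. ADAM17, the enzyme that releases TNF and most EGF-family ligands, had 72 tags (56.3 to 90.7) and 128 tags (107 to 152). ADAM10, the main sheddase of Notch and of the amyloid precursor, had 53 tags (39.7 to 69.3) and 60 tags (45.8 to 77.2). To compare the libraries, the tags of the TRPS1-MT summit were divided by those of the TRPS1-WT summit and then by 1.33, the median of this quotient at the 52625 overlapping peaks of the genome. This scaled ratio was 0.768 (0.631 to 0.936) for ADAM9, 1.33 (0.991 to 1.81) for ADAM17 and 0.849 (0.577 to 1.25) for ADAM10. Only the interval of ADAM9 among these 3 left out a ratio of 1. ADAM19, which takes part in the development of heart valves and nerve, had 40 and 45 tags at its promoter, with a scaled ratio of 0.844 (0.539 to 1.33). ADAM21, a testis-type ADAM, had 47 and 40 tags, but this peak lay 35271 bp before its canonical TSS, at an alternative start that is also the promoter of COX16 and SYNJ2BP.

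Other catalytic ADAMs had weaker or unmatched promoter peaks. ADAM15, expressed on epithelium and endothelium, had 35 tags in TRPS1-WT cells and 27 tags in TRPS1-MT cells in peaks that did not overlap. ADAM28 had 9 and 18 tags, and ADAM12, a secreted and membrane-bound protease of tumour stroma, had 10 tags in each list, again without overlap. ADAM8, which leukocytes and invasive tumour cells express, had a promoter peak in TRPS1-MT cells only, of 19 tags at an alternative TSS. ADAM33 likewise had 1 promoter peak, of 16 tags in TRPS1-MT cells, and no peak at all in its window in TRPS1-WT cells. ADAM20 and ADAM30, both of testis, had a promoter peak in neither list.

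The 8 ADAMs that lack the catalytic zinc site act in adhesion and signalling. At ADAM11 a peak of 59 tags (44.9 to 76.1) in TRPS1-WT cells overlapped a peak of 23 tags (14.6 to 34.5) in TRPS1-MT cells, at an alternative TSS 16837 bp into the gene. The scaled ratio, 0.292 (0.172 to 0.481), was the lowest of the 16 overlapping promoter pairs. At ADAM22, the neuronal receptor of LGI1, the counts were 27 and 13 tags and the ratio was 0.361 (0.171 to 0.724). ADAM32 had 9 and 17 tags in peaks that did not overlap. ADAM23 and ADAM18 had promoter peaks in TRPS1-WT cells only, of 10 and 11 tags. ADAM2, ADAM7 and ADAM29 had none. ADAM2, ADAM7, ADAM18 and ADAM29 are known from testis and epididymis.

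MMP1 was the one gene of the 11q22 cluster with overlapping peaks at its canonical promoter. It had 37 tags (26.1 to 51.0) in TRPS1-WT and 26 tags (17.0 to 38.1) in TRPS1-MT cells, with a scaled ratio of 0.527 (0.306 to 0.894). The other collagenases had less: MMP13 had 9 and 13 tags in peaks that did not overlap, and MMP8, the neutrophil collagenase, had 14 tags in TRPS1-MT cells only. Of the stromelysins, which cut many matrix proteins and activate other MMPs, MMP3 had a promoter peak of 16 tags in TRPS1-WT cells only, at an alternative TSS 4104 bp into the gene, and MMP10 one of 21 tags in TRPS1-MT cells only, 189 bp before the TSS. MMP11, a stromelysin of tumour stroma with furin-type activation, had overlapping peaks of 22 tags (13.8 to 33.3) and 75 tags (59.0 to 94.0) at an alternative TSS 8798 bp into the gene. Its scaled ratio of 2.56 (1.57 to 4.32) was the highest of the 16 pairs.

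The gelatinases, the best known of the family in invasion, had little at their promoters. MMP9 had no promoter peak in either list, and MMP2 had 1 of 11 tags in TRPS1-WT cells only. MMP7, the matrilysin of tumour epithelium, had a promoter peak of 17 tags in TRPS1-MT cells only, 642 bp before the TSS, and MMP26, the other matrilysin, had none. The membrane-type MMPs work at the cell surface, and MMP14 is the activator of MMP2. MMP14 had a promoter peak of 24 tags in TRPS1-MT cells only. A stronger peak in its window, of 163 tags in TRPS1-WT and 194 tags in TRPS1-MT cells, lay 6734 bp before its TSS at the promoter of MRPL52 and SLC7A7. MMP17 had 23 and 15 tags in peaks that did not overlap, MMP25 had 18 tags in TRPS1-WT cells only, and MMP15, MMP16 and MMP24 had no promoter peak.

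Among the other MMPs, MMP19 had overlapping peaks of 33 and 21 tags with a scaled ratio of 0.477 (0.262 to 0.850). MMP20, the protease of tooth enamel, had overlapping peaks of 23 and 55 tags at an alternative TSS, with a ratio of 1.79 (1.08 to 3.06). MMP28 had 13 and 35 tags in peaks that did not overlap. MMP21, known from left-right patterning, had a promoter peak of 52 tags (38.8 to 68.2) in TRPS1-MT cells only, and MMP27 had one of 28 tags there. MMP12 and MMP23B had a promoter peak in neither list. MMP23B has a near-identical copy beside it, MMP23A, which can take its reads.

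All 3 procollagen N-proteinases, which remove the amino-terminal propeptide of fibrillar procollagens, had promoter peaks in TRPS1-WT cells only. The counts were 18 tags for ADAMTS2, 15 tags for ADAMTS3 and 13 tags for ADAMTS14, the last at an alternative TSS with a −log10 p of 9.97. These were small peaks: of the 8 members with promoter peaks in TRPS1-WT cells only, all stood between 10 and 18 tags, and 7 of the 8 strongest peaks had the minimum width of the list. Of the 12 members with promoter peaks in TRPS1-MT cells only, the strongest peaks stood between 14 and 52 tags and 10 had the minimum width. At a stricter −log10 p of at least 10, 4 members had promoter peaks in TRPS1-WT cells only, beside 4.90% of all genes, and ADAMTS14 was not among them. At this limit 24 members had promoter peaks in neither list, beside 26.3%.

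The proteoglycanases, which cut aggrecan and versican, were mixed. ADAMTS9 had overlapping promoter peaks of 33 tags (22.7 to 46.3) and 97 tags (78.7 to 118), at an alternative TSS near 1859 bp into the gene, with a scaled ratio of 2.20 (1.47 to 3.38). ADAMTS15 had 20 and 40 tags with a ratio of 1.50 (0.856 to 2.71). ADAMTS8 had 11 and 53 tags and ADAMTS1 had 12 and 22 tags, each in peaks that did not overlap. ADAMTS4 and ADAMTS5, the major aggrecanases, had promoter peaks in TRPS1-MT cells only, of 24 and 15 tags, and ADAMTS20 had none.

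Of the other ADAMTS genes, ADAMTS10, which binds fibrillin, had overlapping peaks of 42 tags (30.3 to 56.8) and 20 tags (12.2 to 30.9) at an alternative TSS 18256 bp into the gene, with a scaled ratio of 0.357 (0.199 to 0.622). ADAMTS17, which like ADAMTS10 is mutated in a Weill-Marchesani type of short stature, had 47 and 40 tags just before its TSS, with a ratio of 0.638 (0.408 to 0.994). ADAMTS6 had overlapping peaks of 26 and 23 tags and, apart from them, a TRPS1-WT peak of 35 tags 7048 bp into the gene and a TRPS1-MT peak of 57 tags 283035 bp into the gene, both at alternative starts. ADAMTS16 had 17 and 40 tags and ADAMTS18 had 14 and 29 tags, without overlap. ADAMTS7, a protease of vascular smooth muscle with pseudogene copies that could take its reads, had 33 tags and ADAMTS19 had 28 tags, both in TRPS1-MT cells only. ADAMTS12 and ADAMTS13, the latter the protease of von Willebrand factor, had a promoter peak in neither list.

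Over the 16 overlapping promoter pairs the median scaled ratio was 0.716 (0.477 to 1.50), beside 1.01 over the 10092 pairs of all protein-coding genes. The interval of the median, taken from the ranked values of the members, held 1.01. The ratio was above 2 for 2 members, MMP11 and ADAMTS9, beside 8.08% of the pairs of all genes, and below 0.5 for 4 members, ADAM11, ADAMTS10, ADAM22 and MMP19, beside 8.73%. The median number of tags in these pairs was 38.5 for TRPS1-WT and 40.0 for TRPS1-MT, beside 53.0 and 73.0 over all genes. With the fold as deposited in place of tags, no ratio was above 2 and 2 were below 0.5, those of ADAM11 (0.335) and ADAMTS10 (0.469). By fold the highest ratios were those of ADAM17 (1.87), MMP20 (1.81) and ADAMTS15 (1.78), ahead of MMP11 and ADAMTS9 at 1.71 each. The ratio by fold was 0.854 for MMP19 and 0.539 for ADAM22, and those of ADAMTS6 (1.20) and ADAM19 (1.12) passed to the other side of 1. For MMP1 the ratio by fold was 0.812 and for ADAM10 it was 0.542. Ratios of single promoters thus depended on whether the local background was divided out.

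Peaks away from promoters made up most of the binding in the windows. The union of the 62 windows covered 7383 kb and held 486 distinct peaks of the TRPS1-WT list and 900 of the TRPS1-MT list. Of these, 375 (77.2%, 73.2 to 80.7) and 753 (83.7%, 81.1 to 85.9) were distal, in no promoter of any annotated gene, beside 75.4% and 79.2% in the windows of all protein-coding genes. By position, 71.8% of the TRPS1-WT peaks and 74.6% of the TRPS1-MT peaks lay in an intron of the member. Windows without any peak were those of ADAM30 and ADAM33, both in the TRPS1-WT list.

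The density of peaks was 6.58 per 100 kb (6.01 to 7.19) in TRPS1-WT and 12.2 per 100 kb (11.4 to 13.0) in TRPS1-MT cells, beside 7.22 and 13.1 in the windows of all protein-coding genes. By family it was 8.37 and 15.5 for the MMP genes, 6.77 and 12.8 for the ADAM genes and 5.64 and 10.2 for the ADAMTS genes, whose windows were the longest. The TRPS1-MT list had more peaks than the TRPS1-WT list in 56 of 62 windows (90.3%), beside 80.7% over all genes. It had fewer in 4 (6.45%, beside 7.83%). The counts were equal in 2 member windows and in those of 2316 of all 20136 genes. Member windows were also longer, with a median of 66.8 kb beside 47.2 kb. The ratio of the summed counts, 1.84, was close to that of all genes, 1.79, and of the lists as a whole, 1.88.

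In TRPS1-WT cells the densest windows were those of MMP19 (25.4 per 100 kb), MMP9 (18.1), ADAM11 (16.3), ADAM15 (15.5) and MMP14 (15.4). In TRPS1-MT cells they were those of MMP28 (28.6), ADAM11 (25.7), MMP11 (24.9), ADAMTS13 (24.6) and MMP21 (23.7). The sparsest in TRPS1-WT cells, apart from ADAM30 and ADAM33 at 0, were ADAM21 (1.58), ADAM29 (2.37) and ADAMTS18 (2.41). In TRPS1-MT cells they were ADAM21 (3.16), ADAM7 (5.66), ADAM2 (6.11), ADAMTS19 (6.37) and MMP26 (6.50). MMP9, without a promoter peak, was therefore among the densest windows of TRPS1-WT cells. Its 5 peaks there held 11 to 23 tags and its 3 peaks in TRPS1-MT cells 14 to 30 tags.

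**Figure D3:**
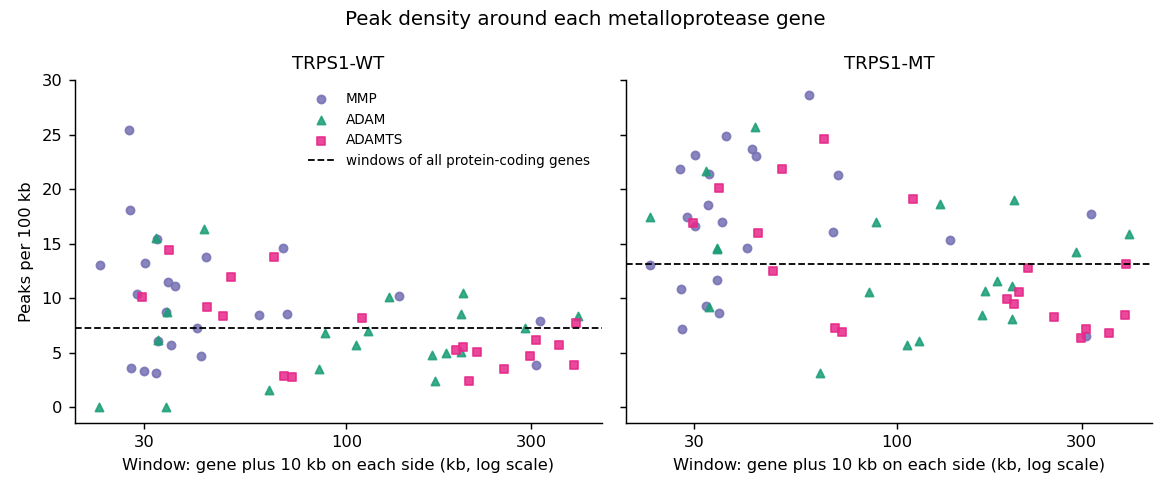
Peaks per 100 kb of window (y axis) against the length of the window in kb (x axis, log scale) for each of the 62 members in TRPS1-WT (left) and TRPS1-MT cells (right), 1 library each; symbols mark the families. The dashed line is the density over the windows of all protein-coding genes, 7.22 and 13.1 per 100 kb.

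In the windows, 140 of 486 TRPS1-WT peaks (28.8%, 25.0 to 33.0) lay on a TRPS1-MT peak, beside 33.6% in the windows of all protein-coding genes. Of the TRPS1-MT peaks, 139 of 900 (15.4%) overlapped a TRPS1-WT peak, beside 18.0%. In member promoters 20 of 60 peaks of the TRPS1-WT list (33.3%) did so, beside 53.5% in the promoters of all protein-coding genes, and among distal peaks 93 of 375 did (24.8%), beside 27.9%. Peaks found in 1 list only were mostly of the minimum width, 87.6% of those in TRPS1-WT cells and 91.7% of those in TRPS1-MT cells, with medians of 12 and 16.0 tags. Overlapping peaks had minimum width in 39.3% and 48.2% and medians of 24.5 and 32.0 tags. ADAM12 and ADAM19 had the most overlapping peaks, 12 TRPS1-WT peaks each.

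The strongest distal sites were in both lists and far stronger than most promoter peaks. In the order of −log10 p in TRPS1-WT cells, the first lay in the downstream flank of ADAM19, inside CYFIP2, at chr5:156817550-156818101, with 667 tags (617 to 719.6) in TRPS1-WT and 396 tags (358 to 437) in TRPS1-MT cells. The nearest TSS of a protein-coding gene other than ADAM19 was that of FNDC9, 45140 bp away, so the site cannot be tied to ADAM19 from position alone. The second lay in an intron of ADAMTS17 at chr15:100582949-100584166, with 512 and 508 tags. The third lay in an intron of MMP20 at chr11:102469997-102471011, with 488 tags (446 to 533) and 790 tags (736 to 847). The fourth lay in an intron of ADAM9, 2777 bp from its TSS, with 483 and 516 tags. The fifth lay 3371 bp before the TSS of ADAM17, with 182 and 101 tags, and the sixth in an intron of ADAM19, 17416 bp into the gene, with 185 tags (159 to 214) and 537 tags (493 to 584).

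These 6 sites did not move together between the libraries. The scaled ratio was 0.445 (0.392 to 0.505) at the ADAM19 downstream flank and 2.18 (1.84 to 2.59) at the ADAM19 intron, so that sites in the window of 1 gene lay on opposite sides of 1. It was 0.416 (0.323 to 0.534) upstream of ADAM17, whose promoter peak stood at 1.33. The values at ADAMTS17, MMP20 and ADAM9 were 0.744 (0.657 to 0.843), 1.21 (1.08 to 1.36) and 0.801 (0.706 to 0.909). Over the 93 distal pairs the median was 0.985, and 10 pairs were above 2 (10.8%, beside 10.8% of the 37426 distal pairs of the genome) and 9 below 0.5 (9.68%, beside 10.7%). These shares were those of distal pairs at large. Pairs were counted by TRPS1-WT peak, so a wide TRPS1-MT peak could enter more than 1 pair. This was so in introns of ADAM19 (a TRPS1-MT peak of 184 tags, ratios 1.86 and 3.21) and ADAM12 (92 tags, ratios 0.683 and 1.77).

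Further strong distal pairs included one in an intron of ADAM12, with 128 and 203 tags, and one in an intron of MMP2 at chr16:55533775-55534468, with 108 and 137 tags and a scaled ratio of 0.951 (0.734 to 1.24). This site lay 21011 bp into the gene, while the TSS of LPCAT2 was nearer, at 8863 bp, so it cannot be tied to MMP2 from position alone. A distal peak of MMP2 in TRPS1-WT cells only, with 69 tags (53.7 to 87.3), lay in an intron of a longer transcript 6718 bp before the canonical TSS. It spanned chr16:55506177-55506608, and a TRPS1-MT peak of 70 tags at chr16:55505338-55506142 ended just short of it. Its place in 1 list only thus rests on the overlap rule. The other strongest distal peaks in TRPS1-WT cells only were in introns of ADAM32 (39 tags) and ADAM22 (40 tags) and 5087 bp before the TSS of MMP19 (35 tags). In TRPS1-MT cells only they were in introns of ADAMTS17 (187 tags, 161 to 216, at chr15:100654208-100655046), ADAM9 (313 tags, 4349 bp from the TSS), ADAM33 (66 tags) and ADAMTS14 (69 tags). The ADAM9 peak was a near neighbour of the ADAM9 site found in both lists, of 483 and 516 tags, 2777 bp from the TSS. ADAMTS14 thus held a small promoter peak in TRPS1-WT cells only and a distal peak of 69 tags in TRPS1-MT cells only, 1393 bp into the gene.

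Of the 6 strongest distal pairs, 4 held an AP-1 match within 100 bp of the summit, those of ADAM19 (both sites), MMP20 and ADAM9, and those of ADAMTS17 and ADAM17 held none. The stretches of 3 of them are shown for the letters at the match. The stretches run 100 bp on each side of the TRPS1-WT summit in GRCh37, with AP-1 and GATA matches in capitals.
ADAM19 downstream flank, chr5:156817723-156817923, plus strand: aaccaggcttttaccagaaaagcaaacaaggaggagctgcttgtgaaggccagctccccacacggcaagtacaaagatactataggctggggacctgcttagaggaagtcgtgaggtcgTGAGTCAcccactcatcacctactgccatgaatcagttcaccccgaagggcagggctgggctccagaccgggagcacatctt
ADAM19 intron, chr5:156985455-156985655, plus strand: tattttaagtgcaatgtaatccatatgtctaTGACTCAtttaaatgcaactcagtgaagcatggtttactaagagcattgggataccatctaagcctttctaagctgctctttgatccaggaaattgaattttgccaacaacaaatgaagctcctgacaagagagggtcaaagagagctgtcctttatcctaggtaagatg
MMP20 intron, chr11:102470500-102470700, plus strand: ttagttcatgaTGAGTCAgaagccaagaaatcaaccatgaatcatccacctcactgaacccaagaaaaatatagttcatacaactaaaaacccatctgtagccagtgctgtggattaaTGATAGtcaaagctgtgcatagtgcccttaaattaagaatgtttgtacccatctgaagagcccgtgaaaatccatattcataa

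The ADAM19 stretches held the AP-1 letters and no GATA letters, and the MMP20 stretch held both. Over all 93 distal summits in both lists, 22 had an AP-1 match (23.7%, 16.2 to 33.2), beside 22.5% of all 37427 such summits. For distal summits in TRPS1-WT cells only the shares were 6.74% and 5.95%, and in TRPS1-MT cells only 3.47% and 4.06%. AP-1 letters were thus more frequent at summits found in both lists than at summits of 1 list, among the members as among all peaks. Among the 16 distal member summits in both lists with −log10 p of at least 50 in TRPS1-WT cells, a limit chosen after these values were seen, 9 had an AP-1 match (56.2%, 33.2 to 76.9), beside 40.6% of the 9012 such summits of the genome. At these 16 summits the GATA letters were found once (6.25%, 1.11 to 28.3), beside 32.2%.

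GATA letters, the consensus of the family of zinc fingers to which TRPS1 belongs, were found at 35.5% of distal member summits in both lists (26.5 to 45.6), beside 37.2% of all. In TRPS1-WT cells only they were at 39.7% (34.2 to 45.5), beside 42.4%, and in TRPS1-MT cells only at 43.5% (39.8 to 47.3), beside 40.1%. TEAD letters were at 16.1%, 11.7% and 14.8% of these 3 classes, beside 18.3%, 12.2% and 11.4%. The TEAD share at member summits in TRPS1-MT cells only had an interval of 12.3 to 17.7, above the share of all such summits, but the intervals held that share within 50 bp of the summit (7.10%, 5.38 to 9.31, beside 5.76%) and at −log10 p of at least 10 (13.1%, 9.87 to 17.1, beside 11.6%). E-box letters were at 32.3%, 23.0% and 23.3%, beside 25.1%, 24.0% and 23.7%. SP and KLF letters were at 1.08%, 3.55% and 3.93%, beside 4.27%, 2.53% and 2.61%, and the interval of the last class, 2.69 to 5.69, lay just above its share over all such summits. The ETS letters were found at 1 of the 662 summits in TRPS1-MT cells only and at none of the 93 and 282 in the other classes.

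The 9 MMP genes of chromosome 11q22 lie side by side, MMP7, MMP20, MMP27, MMP8, MMP10, MMP1, MMP3, MMP12 and MMP13, all on the minus strand. From 10 kb outside the first to 10 kb outside the last gene (chr11:102381239-102836461, 455 kb) there were 31 TRPS1-WT peaks and 66 TRPS1-MT peaks, of which 11 in each list overlapped. This is 6.81 per 100 kb (4.63 to 9.67) and 14.5 per 100 kb (11.2 to 18.4), beside 5.60 and 10.5 over the genome and 7.22 and 13.1 in the windows of all protein-coding genes. The TRPS1-MT interval lay above the density of the genome but held that of the windows. In promoters of the cluster, 5 of 9 held the AP-1 consensus, 7 held TATAAA and none held GGGCGG.

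The binding in the cluster was concentrated at 1 end. Besides the MMP20 intron site of 488 and 790 tags, the MMP20 gene held a second intron pair of 145 and 345 tags. A pair of 217 and 227 tags lay between MMP7 and MMP20, outside the windows of both genes, and a pair of 36 and 100 tags lay nearer to MMP7. From MMP27 to MMP13, the strongest TRPS1-WT peak held 38 tags and the strongest TRPS1-MT peak 66 tags, both between MMP1 and MMP3 and neither in the other list. MMP27, MMP8, MMP10 and MMP7 had promoter peaks in TRPS1-MT cells only, MMP3 in TRPS1-WT cells only, and MMP12 in neither.

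Other member windows also ran into each other. ADAM9 and ADAM32 shared 18456 bp of window, with 4 TRPS1-WT and 3 TRPS1-MT peaks that count for both, among them a pair of 83 and 53 tags inside ADAM32. Those of ADAM18 and ADAM2 shared 6331 bp, and in the cluster those of MMP27 and MMP8, MMP10 and MMP1, and MMP3 and MMP12 overlapped. Counts of distinct peaks count such a peak once.

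The genes around the proteases stood close to protein-coding genes at large in the shares with promoter peaks in both lists and with overlapping ones. Of 37 inhibitors, activators, partners, ADAMTS-like proteins and shed ligands, 24 had promoter peaks in both lists (64.9%, beside 62.6% of all genes). Promoter peaks were in TRPS1-WT cells only for 3 (8.11%, beside 4.89%) and in TRPS1-MT cells only for 6 (16.2%, beside 13.8%). They were in neither for 4 (10.8%, beside 18.7%). Overlapping promoter peaks were found for 19 of the 37 genes (51.4%, beside 50.1%). The 7 activators all had promoter peaks in both lists. Among them were the plasminogen activators PLAU (163 and 207 tags) and PLAT (273 and 243 tags), the urokinase receptor PLAUR (176 and 226 tags) and FURIN, the convertase that activates membrane-type MMPs and ADAMs (38 and 66 tags). The convertase PCSK5 had 81 and 49 tags with a scaled ratio of 0.454 (0.312 to 0.655).

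Of the inhibitors, TIMP1 had 44 and 43 tags and TIMP2, which also takes part in the activation of MMP2 by MMP14, had 31 and 70 tags with a scaled ratio of 1.69 (1.09 to 2.67). TIMP3, bound to the matrix, had 12 tags in TRPS1-WT cells only. TIMP4 and RECK had no promoter peak. Among the partners of ADAM10 and ADAM17, the tetraspanin TSPAN5, which escorts ADAM10, had overlapping peaks of 164 and 180 tags, while RHBDF1 and FRMD8, which serve the maturation of ADAM17, had 17 and 27 tags in TRPS1-MT cells only. Of the shed ligands, NRG1 had 241 and 467 tags with a scaled ratio of 1.45 (1.24 to 1.70), HBEGF had 33 tags in TRPS1-WT cells only and AREG had no promoter peak. ADAMTSL5 had 147 and 178 tags.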

How the data were processed

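Flag CUT&Tag was done in HCT116 cells with TRPS1-WT or TRPS1-MT, 1 library each, grouped by the genotype in the labels. Per the methods and labels, the authors cleaned the reads, aligned them to hg19 (Bowtie 0.12.8), called peaks with MACS for each library and used HOMER. Whether a control library was used in peak calling is not given. The labels name a second build besides hg19. GRCh37, the build of the methods, and GENCODE release 44 lifted to it were used. The last peaks of 48 of 48 chromosomes, counted over both lists, ended within GRCh37 lengths. This check made no comparison with the second build and cannot tell the builds apart. The deposited lists hold for each peak a score, a fold (ratio of summit pileup to local background), −log10 p, −log10 q and the summit offset. The smallest −log10 q was 4.00. The methods name a MACS release before MACS2 while the layout is that of MACS2, so tags, which were recovered from the fold and −log10 p by a Poisson model to within 0.01, assume MACS2. On simulated data 100% of 20000 tag counts were recovered, and 3 TRPS1-WT and 2 TRPS1-MT peaks stayed without. The fragment width behind the tags differs between the lists (minimum peak widths of 168 and 280 bp). Intervals are Wilson for shares, exact Poisson for tags and rates, exact binomial for ratios and from ranked values for the median ratio. No p-value was computed.

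Members, gene lists, consensus sequences and rules were chosen with earlier results of these data known. Named were the 12 members with the strongest overlapping promoter peak, the 6 with the strongest promoter peak in 1 list only, the 6, 4 and 4 strongest distal peaks in both lists, of TRPS1-WT and of TRPS1-MT alone, members without a promoter peak, the 11q22 genes, the 5 densest and sparsest windows, the 5 highest and lowest ratios, and MMP2, MMP9, MMP7, MMP14, ADAM10, ADAM17, ADAMTS1 and ADAMTS5. Other members were given so that each is accounted for. Some sequences and genes are not reported here. Promoter sequences of RefSeq were on another build and were not used. Alternatives were stricter peaks, equal list sizes, other promoter, window and overlap rules and other scalings. Computations used scipy 1.17.1 and numpy 2.4.6 under Python 3.11.15, pysam 0.24.0 for sequences, and matplotlib 3.10.9 and pandas 2.3.3.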

Additional observations from a re-analysis of the deposited data

How the results depend on the processing

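No paired analysis was possible because each group has 1 library, and no replicate could be left out. For 36 results, 114 values under other settings were computed, of which 68 stayed within 1.5 times the count or within the interval and 46 moved. Promoter classes depended on the TSS set most. With the canonical TSS only, promoter peaks were found for 22 members in the TRPS1-WT list (55.5% of all genes), 13 in both lists (48.4% of all) and 27 in neither (29.3% of all). The shares of TRPS1-WT window peaks were then 5.97% in member promoters, 8.02% in other promoters and 86.0% distal, and of TRPS1-MT peaks 3.56% in member promoters and 90.2% distal. With promoters of 1 kb on each side, member promoters held 9.67% and 6.89% and distal peaks 81.5% and 86.8%. With −log10 p of at least 10, promoter peaks were in TRPS1-WT cells only for 4 members (4.90% of all genes) and in neither for 24 (26.3% of all). The windows then held 278 and 500 peaks (3.77 and 6.77 per 100 kb), other promoters 13.7% and 9.20% of them and distal peaks 71.2% and 80.2%. At equal list sizes the TRPS1-MT windows held 449 peaks (6.08 per 100 kb), which follows from the trimming, since the excess of TRPS1-MT peaks in the windows was that of the whole lists.

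The share of TRPS1-WT window peaks that overlap a TRPS1-MT peak was 22.6% both for an overlap of at least 50% of either peak and for the summit inside the peak, 21.0% at equal list sizes and 34.9% at −log10 p of at least 10, beside 25.4%, 24.6%, 25.8% and 41.5% of all peaks under these settings. Within 50 bp of the summit, shares with a match fell by construction, to 12.9% for AP-1, 25.8% for GATA, 11.8% for E-box and 0 for SP and KLF letters in both lists. All such summits stood at 12.1%, 20.8%, 13.4% and 2.19%. In TRPS1-WT cells only the shares fell to 4.26%, 22.3%, 12.1% and 1.06%, and 6.03% for TEAD, beside 3.08%, 24.4%, 12.7%, 1.27% and 6.34% of all. In TRPS1-MT cells only they fell to 1.66% for AP-1, 22.5% for GATA, 7.10% for TEAD and 12.4% for E-box letters, beside 1.99%, 22.5%, 5.76% and 12.6% of all. At −log10 p of at least 10, E-box letters were at 29.0% in TRPS1-WT cells only (21.8 to 37.6), beside 24.6% of all such summits. In TRPS1-MT cells only, AP-1 was at 1.78% (0.818 to 3.83), beside 4.56%, and ETS at 0, beside 0.385%. At 50 or more, a limit chosen after seeing the data, AP-1 was at 56.2% and GATA at 6.25% in both lists. MMP24OS included, also chosen afterwards, gave 36 and 40 genes with a promoter peak. The median scaled ratio of promoter pairs, 0.716, was 0.833 with the deposited fold and 0.709 with promoter scaling. Most peaks rest on few tags at minimum width, which limits what a peak in 1 list only can show, and library depth is unknown.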
